A study of Mus musculus with 4 samples.

Results

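Cells carrying the SMRTmRID mutation had much higher signals than wild-type cells for Thy1, Pdpn and Vcam1. These are surface antigens by which fibroblasts and mesenchymal progenitors are recognised. The mutant cells were also much higher for Ms4a4d, which was selected on that difference. Their signals were lower for Cd34 and Nt5e. For Eng, Icam1 and Dpp4 the arrays of the genotypes overlapped on the brightest probe set. The genes are 10 surface markers of fibroblasts and mesenchymal cells, Thy1, Ly6a, Cd34, Eng, Nt5e, Vcam1, Icam1, Pdpn, Dpp4 and Ms4a4d. The first 9 of them are antigens used to sort such cells, and Ms4a4d was selected on the size of its signal difference between the genotypes, with the differences of the others known as well. Every probe set annotated to exactly 1 of these symbols was taken, which gave 17 probe sets for 9 of the 10 genes, out of 18193 genes named in the series. Ly6a had no probe set named here and is not analysed here.

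The data are the signals of 4 biotin-labelled single-colour arrays of mouse total RNA, 2 from wild-type 3T3-MEFs and 2 from SMRTmRID 3T3-MEFs. Such cells are mouse embryonic fibroblasts that were passaged until they grew as a permanent line, and both genotypes were untreated and were collected at confluence without differentiation. The corepressor SMRT silences genes when nuclear receptors draw it to chromatin, and in SMRTmRID the domains by which receptors bind it are mutated. The labels call the 2 arrays of a genotype technical replicates, so every error below rests on the spread between such arrays. The number of cell lines per genotype, the strain and the age of the embryos are not given in the sources used here, so a difference between genotypes cannot be told apart from a difference between lines. With 2 arrays per genotype, their number limits the precision.

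Thy1 (CD90), Nt5e (CD73) and Eng (CD105) are the antigens by which cultured mesenchymal stromal cells are conventionally defined, and Cd34 and Ly6a (Sca-1) are used to sort stromal progenitors of mouse tissues, adipose tissue among them. Dpp4 and Icam1 mark different subsets of adipose progenitors, while Vcam1 and Pdpn are found on activated fibroblasts and on stromal cells of lymphoid organs. None of these antigens belongs to fibroblasts alone: endothelial cells carry Cd34, Eng, Vcam1 and Icam1, lymphocytes carry Thy1, and mesothelial cells carry Pdpn.

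The arrays showed fibroblast RNA in both genotypes. Of 14 measured genes of a list of fibroblast and mesenchymal markers, 13 had means above the median of all values in both genotypes. The other, Lum (lumican), read 3.25 and 3.05 in wild-type against 190 and 176 in SMRTmRID. The summed signal of the list was 95111 to 97551 in wild-type and 96717 to 102428 in SMRTmRID. Of 12 blood cell markers 9 were below the filter on signal, a mean over the 4 arrays above that median, with a summed signal of 420 to 637 in wild-type and 558 to 564 in SMRTmRID, and the pan-leukocyte gene Ptprc was between 1.01 and 11.9 on the 4 arrays. Of 11 endothelial markers 10 were below the filter, the summed signal was 241 to 268 and 250 to 272, and the defining gene Pecam1 was between 1.78 and 3.09. No marker of these lists was listed at 0. Of the blood cell markers above the filter, Cd14 read 157 and 141 in wild-type against 209 and 198 in SMRTmRID, a log2 difference of 0.41. Csf1r read 266 and 86.7 against 180 and 149, and Adgre1 26.3 and 50.3 against 32.6 and 48.0. The log2 difference of Csf1r was 0.81 without wild-type replicate 1 and -0.65 without wild-type replicate 2. With all its probe sets averaged Csf1r was higher in SMRTmRID by 0.99 (limma, adjusted p = 0.0019). The endothelial gene Egfl7 read 119 and 128 against 115 and 136. Epithelial markers summed to 287 to 345 and 301 to 317, with 5 of 7 below the filter, but single genes differed: Krt19 read 6.11 and 4.98 against 53.9 and 82.8, Cdh1 55.9 and 42.3 against 2.41 and 1.61, and Epcam 187 and 171 against 137 and 132. The sums of the mesothelial and pericyte lists differed between the genotypes, each through a few genes. The mesothelial list summed to 773 to 783 in wild-type and 138 to 160 in SMRTmRID, with 5 of 6 genes below the filter, and Msln alone went from 665 and 703 to 42.2 and 13.5. Wt1, of the same list, went the other way, from 1.02 and 8.69 to 51.4 and 77.4. The pericyte list summed to 1002 to 1047 and 835 to 855, with 5 of 7 below the filter and Cspg4 and Notch3 moving in opposite directions. The part of these markers in the results below was not tested.

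**Figure D1:**
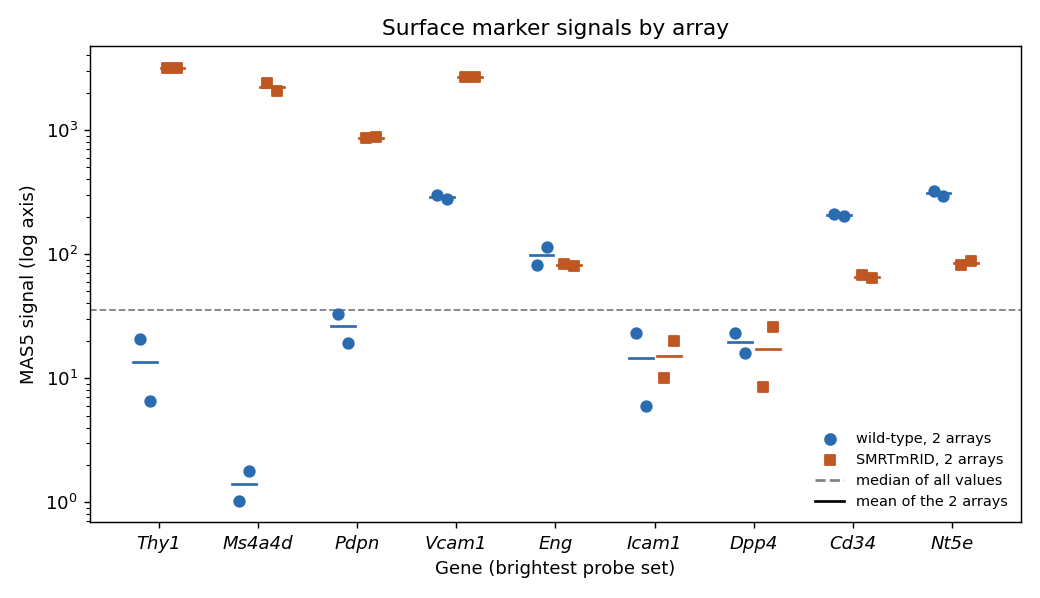
MAS5 signal (log axis) of the brightest probe set of 9 surface marker genes on each of the 4 arrays, with circles for wild-type, squares for SMRTmRID, a short line for the mean of 2 arrays and a dashed line at the median of all values, 35.1. Thy1, Ms4a4d, Pdpn and Vcam1 sit higher in SMRTmRID, Cd34 and Nt5e sit lower, and Icam1 and Dpp4 lie under the dashed line on all 4 arrays.

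Signals are MAS5 values, a linear measure of a probe set's brightness. Differences are on the scale of log2(signal + 16), positive where SMRTmRID was higher, and they understate a change that starts from a low signal. Because the genes were chosen with this contrast known, their differences are given with standard errors from the fit (limma) as a description and no p-value is given for them. The fit draws each gene's spread towards that of genes of like signal. A standard error can thus be smaller than the gene's own arrays give. For Thy1 the wild-type arrays lay 0.70 apart on this scale. In bulk RNA, fewer cells with a transcript and less of it per cell cannot be told apart.

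The antigens held in the membrane by a glycolipid (GPI) anchor went opposite ways. Thy1, a small immunoglobulin-domain glycoprotein, read 20.6 and 6.57 on the wild-type arrays against 3172 and 3184 on the SMRTmRID arrays. The SMRTmRID arrays were nearly equal and far above both wild-type arrays, which were themselves below the median of all values. The log2 difference was 6.80 ± 0.18 (SE), and it was the 6th greatest rise among the 11057 genes tested. Nt5e, the surface enzyme that turns AMP into adenosine, read 324 and 293 in wild-type against 81.9 and 87.7 in SMRTmRID. Its genotypes did not overlap, with a log2 difference of -1.68 ± 0.12 (SE) and a mean in wild-type 3.63 times that in SMRTmRID.

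Nt5e had 3 probe sets, and on each of them both SMRTmRID arrays lay below both wild-type arrays, while the genotypes were free of overlap on 63.4% of all 34945 probe sets with 1 symbol. The second read 158 and 177 in wild-type against 60.8 and 42.6, a log2 difference of -1.45. The dimmest read 23.2 and 23.7 against 5.67 and 19.6, below the median of all values, with a log2 difference of -0.51.

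Both sialomucins, heavily glycosylated proteins of the cell surface, differed and in opposite directions. Pdpn (podoplanin), which binds the platelet receptor CLEC-2 and links to the cortical cytoskeleton through ezrin and moesin, read 33.1 and 19.1 in wild-type against 863 and 873 in SMRTmRID. Wild-type arrays were below the median of all values and SMRTmRID arrays well above it, a log2 difference of 4.41 ± 0.16 (SE). Cd34 read 210 and 203 in wild-type against 67.9 and 63.95 in SMRTmRID. The arrays of each genotype were close, and the wild-type mean was 3.14 times the SMRTmRID mean, a log2 difference of -1.44 ± 0.14 (SE).

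The adhesion receptors for leukocyte integrins did not move together. Vcam1, the ligand of the integrin that holds Itga4, read 301 and 276 in wild-type against 2677 and 2658 in SMRTmRID. It was above the median of all values on every array, and the SMRTmRID mean was 9.24 times the wild-type mean, a log2 difference of 3.14 ± 0.06 (SE). Its other probe sets read 213 and 192 against 1346 and 1384, and 165 and 139 against 795 and 735, with log2 differences of 2.66 and 2.22. All 3 probe sets of Vcam1 separated the genotypes in the same direction, with a smaller difference on the dimmer ones, against 63.4% of all probe sets without overlap. Icam1, the ligand of the integrins that hold Itgb2, read 23.1 and 5.99 in wild-type against 10.01 and 19.9 in SMRTmRID. These signals are low and overlap, and the log2 difference of 0.06 changed sign with single arrays, from -0.36 without wild-type replicate 2 to 0.47 without wild-type replicate 1. Whether Icam1 differs between the genotypes was not detectable at this signal.

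Eng, a co-receptor that presents TGF-beta family ligands to their signalling receptors, read 82.4 and 114 in wild-type against 83.4 and 80.0 in SMRTmRID. The SMRTmRID arrays lay within or just below the range of the wild-type arrays, and the log2 difference was -0.21 ± 0.19 (SE). The second probe set of Eng read 44.2 and 24.9 against 36.5 and 45.3, again overlapping, with a log2 difference of 0.19. The difference of the brighter probe set was -0.42 without wild-type replicate 1 and -0.011 without wild-type replicate 2. Of the antigens that conventionally define mesenchymal stromal cells, Thy1 was therefore higher, Nt5e lower and Eng overlapping in SMRTmRID.

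Dpp4 (CD26), a peptidase of the cell surface that removes dipeptides from chemokines and hormones, was low throughout. Its brightest probe set read 23.2 and 16.03 in wild-type against 8.50 and 25.6 in SMRTmRID. The other 3 lay between 0.868 and 7.52 on all arrays, and 2 of the 4 did not overlap between genotypes (63.4% of all probe sets), both lower in SMRTmRID. The log2 difference of the brightest was -0.15, and it ran from -0.53 without SMRTmRID replicate 2 to 0.23 without SMRTmRID replicate 1. Dpp4 and Icam1 were below the filter and not tested.

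Ms4a4d, a member of the MS4A family of proteins that cross the membrane several times, was chosen for its difference. It read 1.03 and 1.78 in wild-type against 2382 and 2061 in SMRTmRID. The log2 difference was 7.00 ± 0.12 (SE), the 4th greatest rise among the tested genes. The wild-type values are near the bottom of the scale, so the size of the difference depends on the pseudocount, from 5.12 with 64 to 9.86 with 1. For Thy1 the corresponding values were 5.39 and 7.96, and for Pdpn 3.38 and 5.05.

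**Figure D2:**
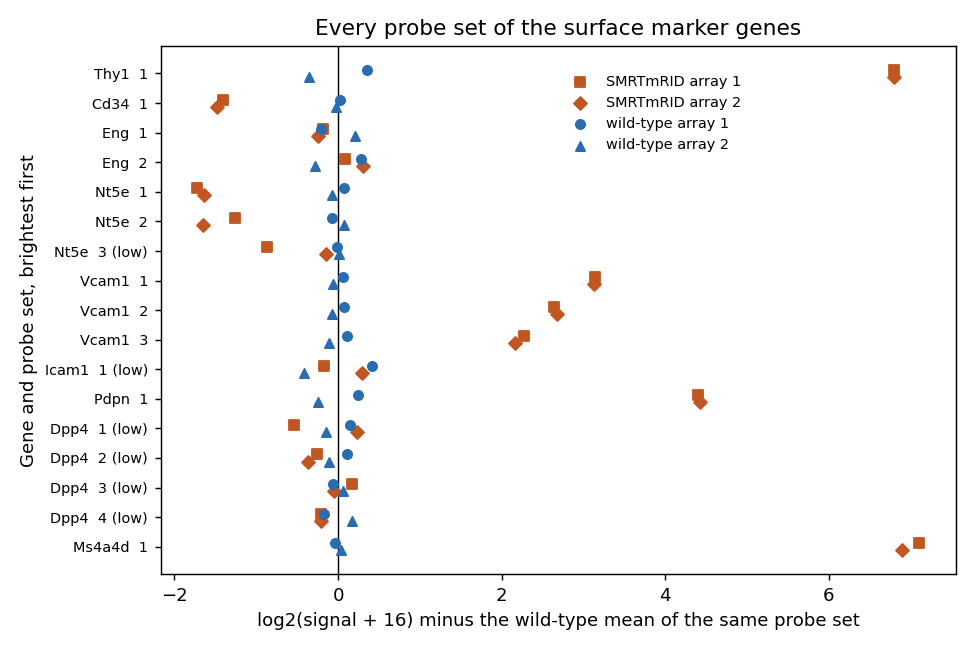
Log2(signal + 16) of every array minus the wild-type mean of the same probe set, for all 17 probe sets of 9 genes, brightest first within a gene, with blue for wild-type and orange for SMRTmRID arrays; "low" marks a mean signal under 35.1. The 3 probe sets of Vcam1 lie to the right, the 3 of Nt5e to the left, and those of Eng, Icam1 and Dpp4 within 1 log2 unit of 0.

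Of the 9 genes with a probe set, 7 passed the filter on signal, a mean over 4 arrays above the median of all values. Thy1, Pdpn and Ms4a4d passed it through the SMRTmRID arrays alone, so the filter itself favoured a difference in these genes. In the fit over all genes 6 of the 7 passed an adjusted p of 0.05 (limma), 4 higher and 2 lower, against 65.2% of all 11057 tested genes, 30.3% higher and 35.0% lower. Arrays were free of overlap between genotypes for 6 of the 9 genes, against 64.8% of all 18193 genes with a probe set. Nothing is read from these counts, since the choice of genes used this contrast. Over all tested genes the median difference was -0.05.

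**Figure D3:**
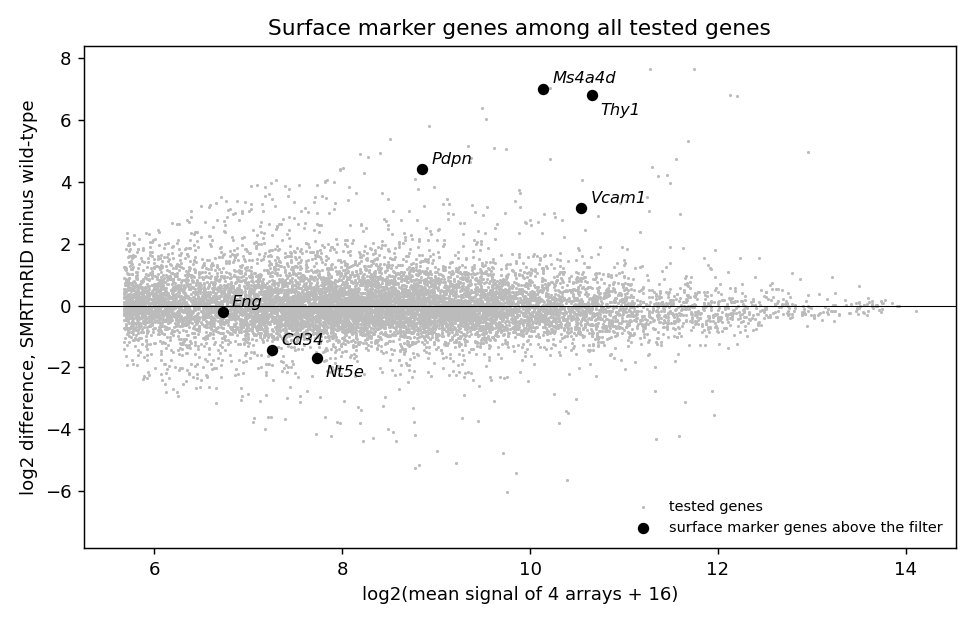
Log2 difference between genotypes against log2(mean signal of 4 arrays + 16) for the 11057 tested genes (grey) and the 7 surface marker genes above the filter (black, named). Ms4a4d at 7.00 and Thy1 at 6.80 lie near the upper edge, Pdpn and Vcam1 below them, and Eng at -0.21 lies within the bulk of genes.

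The genes nearest to the 3 most different antigens were found by the Euclidean distance of centred log2 values over the 4 arrays. For Ms4a4d they were Igfbp3, Dcn and Postn, at distances of 0.197, 0.227 and 0.269. For Thy1 they were Igfbp3, Dcn and Nts, at 0.513, 0.531 and 0.628. For Pdpn they were Hoxd8, Selenop and Mmp13, at 0.151, 0.181 and 0.271. Dcn (decorin), a small matrix proteoglycan, read 60.9 and 63.7 in wild-type against 8878 and 8777 in SMRTmRID. With 2 levels of genotype such likeness mostly reflects the size of the difference.

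Sequences upstream of the start were examined for the antigens that were higher together and lower together. RefSeq (GRCm38.p6) entries were found for 7 of the 10 genes. The 250 bases before the start are shown for the 2 with the greatest rise and the 2 that were lower, among those with an entry. Capitals mark matches on either strand to any of 5 motifs. The first is AGGTCA, the core motif bound by many nuclear receptors, shown because SMRT acts through such receptors. The second is the GC box, spelled GGGCGG, and the third the TATA box, spelled TATAAA. The fourth is the AP-1 motif, spelled TGANTCA, and the fifth a loose NF-kB motif, spelled GGNNNTTCC. They lie on chr19:11536544-11536793 (plus strand) for Ms4a4d, chr4:143299565-143299814 (minus strand) for Pdpn, chr1:194938571-194938820 (plus strand) for Cd34 and chr9:88327359-88327608 (plus strand) for Nt5e.
Ms4a4d: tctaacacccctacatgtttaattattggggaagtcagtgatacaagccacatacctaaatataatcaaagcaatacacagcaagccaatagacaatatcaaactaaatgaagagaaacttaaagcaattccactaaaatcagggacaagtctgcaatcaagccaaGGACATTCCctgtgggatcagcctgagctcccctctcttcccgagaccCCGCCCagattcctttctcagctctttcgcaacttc
Pdpn: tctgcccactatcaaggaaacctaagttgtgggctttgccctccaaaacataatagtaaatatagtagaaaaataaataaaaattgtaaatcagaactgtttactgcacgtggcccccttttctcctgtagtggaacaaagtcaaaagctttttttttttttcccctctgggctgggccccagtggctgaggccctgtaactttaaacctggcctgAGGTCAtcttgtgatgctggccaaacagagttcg
Cd34: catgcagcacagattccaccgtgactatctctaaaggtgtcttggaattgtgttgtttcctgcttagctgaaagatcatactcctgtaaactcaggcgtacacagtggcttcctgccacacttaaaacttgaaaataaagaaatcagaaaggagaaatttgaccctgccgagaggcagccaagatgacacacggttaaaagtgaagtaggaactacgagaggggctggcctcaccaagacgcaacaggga
Nt5e: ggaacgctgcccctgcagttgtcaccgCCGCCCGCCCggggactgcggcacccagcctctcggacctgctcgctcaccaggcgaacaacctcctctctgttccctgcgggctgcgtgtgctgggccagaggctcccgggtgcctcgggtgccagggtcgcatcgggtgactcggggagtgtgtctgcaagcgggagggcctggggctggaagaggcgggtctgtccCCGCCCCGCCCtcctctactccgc

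The promoters differed in composition as well as in motifs. Nt5e had 21 CG dinucleotides and 72.0% GC, against a median of 6 CG dinucleotides over 32851 promoters of that length, while Pdpn had 2, Ms4a4d 3 and Cd34 6. The window of Pdpn held 1 match to AGGTCA, 34 to 29 bases before the start, a motif found in 14.02% of the promoters. Ms4a4d held 1 GC box, 36 to 31 bases before the start, and 1 match to the NF-kB motif, 84 to 76 bases before it. Nt5e held 4 GC boxes in 2 overlapping pairs, and Cd34 held no match to any of the 5 motifs. GC boxes were found in 32.7% of the promoters, the NF-kB motif in 15.7%, the TATA box in 12.4% and the AP-1 motif in 6.75%. Icam1, whose signal was low, held 2 matches to the NF-kB motif in its 250 bases. A match is a description of the letters in this window and no evidence of binding.

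Genes next to these antigens on the chromosome were measured to describe their surroundings, taking the nearest gene on each side with a probe set. Of 18 such neighbours 10 were tested, and 5 were higher and 5 lower (limma, adjusted p under 0.05), against 65.2% of all genes. Ms4a4d lies between Ms4a6b and Ms4a6d, whose signals were between 8.51 and 18.1 on all arrays. Nt5e was lower, whereas its neighbours Tbx18 and Snx14 rose by 1.20 and 0.89. Usp2, next to Thy1, rose from 19.4 and 16.4 to 165 and 164. Usp2, counted among those higher, passed the filter through SMRTmRID alone, which favours a difference. Nectin1, on the other side of Thy1, fell by 0.70, a call that was lost when wild-type replicate 2 was left out (adjusted p = 0.0968) and when all its probe sets were averaged (a difference of -0.21, adjusted p = 0.370). Plxna2, next to Cd34, fell by 1.19.

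Other surface antigens of mesenchymal cells moved in both directions. Of 38 on a list, 36 had a probe set and 28 were tested, of which 13 rose and 13 fell (92.9% called, against 65.2% of all tested genes), with a median of -0.01 against -0.05. Of the 28 genes, 4 passed the filter through 1 genotype alone, as 819 of all tested genes did. Such passing favours a difference without forcing a call. Among the other 24 genes 10 rose and 12 fell. Fap, the fibroblast activation protein, a surface peptidase related to Dpp4, read 4.20 and 9.04 in wild-type against 484 and 472 in SMRTmRID. The log2 difference was 4.46 ± 0.18 (SE), and with wild-type signals this low the gene passed the filter through SMRTmRID alone. Pdgfra, the receptor of platelet-derived growth factor by which adipose progenitors are traced, read 247 and 262 against 4828 and 5090 and rose by 4.20. Mme (CD10), a surface peptidase, rose by 4.04 from wild-type signals of 15.4 and 5.18. Cspg4 (NG2), a proteoglycan of pericytes and progenitors, fell from 774 and 808 to 46.9 and 41.1, a log2 difference of -3.75 ± 0.11 (SE; limma, adjusted p = 6.71e-09). Pdgfrb rose by 1.78 and F3 (CD142) by 1.48, while Alcam (CD166), Cd151 and Cd24a had log2 differences of -1.68, -1.45 and -1.17. Itgb1, the integrin beta chain shared by many receptors, was bright on every array and had a log2 difference of -0.06 that did not pass.

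The families of single antigens gave few parallels. Of 15 MS4A family genes listed, 13 had a probe set and none was above the filter, with signals between 1.05 and 47.8. Without a filter 1 of them was called (limma), Ms4a7, which read 7.25 and 3.31 in wild-type against 22.1 and 41.4 in SMRTmRID. Of 15 Ly6 and uPAR family genes with a probe set, the family to which Ly6a belongs, 7 were tested: 2 rose and 3 fell (71.4% called, against 65.2% of all tested genes), and the median was 0.16. Psca and Slurp1, 2 of those that fell, passed the filter through wild-type alone. Plaur, the urokinase receptor, fell from 616 and 631 to 153 and 171, Psca and Slurp1 had log2 differences of -1.91 and -1.76, and Cd59a, a GPI-anchored complement inhibitor, rose by 0.46. Ly6e rose by 0.43. Of 7 sialomucin genes 2 were tested, of which Cd164 rose by 0.40 and Podxl2 had a log2 difference of -0.79. Both were called, against 65.2% of all tested genes. The call of Podxl2 ended when wild-type replicate 2 was left out (adjusted p = 0.0767) and when SMRTmRID replicate 1 was (0.0721), so that 1 gene of the list was then called.

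Immunoglobulin-family adhesion genes, the wider family of Vcam1, Icam1 and Thy1, also split. The 15 tested genes comprised 6 that rose and 5 that fell (73.3% called, against 65.2% of all tested genes). Their median was 0.04. Alcam passed the filter through wild-type alone, and Cadm4, which was not called, through SMRTmRID alone. Among the other 13 genes 6 rose and 4 fell. F11r, a junctional adhesion molecule, rose from 95.4 and 80.1 to 299 and 336. Jam2 and Ncam1 rose by 0.96 and 0.81, and Alcam fell by 1.68. With all probe sets of a gene averaged 4 rose and 2 fell. Icam2 and Icam4 read between 3.98 and 24.5 on all arrays.

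Ligands and partners of these antigens were mostly low where they belong to blood cells. The leukocyte integrin genes Itga4, Itgb7, Itgal, Itgam and Itgb2 and the podoplanin receptor gene Clec1b were below the filter. The 7 tested genes comprised 2 that rose and 3 that fell (71.4% called, against 65.2%), and their median was -0.19. Itgav, whose integrins bind Thy1, rose from 1368 and 1319 to 3341 and 3137. Ezr (ezrin), which binds the tail of podoplanin, fell from 761 and 756 to 308 and 312, a log2 difference of -1.25 ± 0.07 (SE; limma, adjusted p = 3.13e-07). Msn (moesin) fell by 0.38 and Rdx (radixin) rose by 0.51. Cav1 (caveolin), a binding partner of Dpp4, fell by 0.55.

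In the pathway of endoglin 6 of 16 tested genes rose and 8 fell (87.5% called, against 65.2% of all tested genes), and the median was -0.23. The co-receptor Tgfbr3 (betaglycan) read 759 and 681 in wild-type against 3804 and 3878 in SMRTmRID and rose by 2.39. The receptor genes Bmpr2 and Tgfbr1 rose by 2.09 and 1.43, while Tgfbr2 fell from 2333 and 2357 to 1427 and 1508, a log2 difference of -0.67. The BMP target genes Id1 and Id2, inhibitors of basic helix-loop-helix factors, read 1362 and 1362 against 592 and 664, and 842 and 745 against 378 and 371, and fell by 1.10 and 1.05. The feedback inhibitor gene Smad6 fell by 0.58. Acvrl1, the receptor with which Eng acts in endothelium, read between 12.2 and 34.2 and was not tested.

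In the adenosine pathway, in which Nt5e makes adenosine, 4 of 11 tested genes rose and 3 fell (63.6% called, against 65.2%), with a median of 0.06. Enpp3, a surface enzyme that splits nucleotides, rose from 26.3 and 29.5 to 303 and 294. It passed the filter through SMRTmRID alone, which favours a difference. Among the other 10 tested genes 3 rose and 3 fell. Ada, which breaks adenosine down, fell from 548 and 566 to 202 and 189, and the cytosolic nucleotidase gene Nt5c fell by 1.55. Pnp, which acts after Ada, rose by 0.44. Entpd1 (CD39), which supplies AMP to Nt5e, read between 1.46 and 17.0.

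A list of prolyl and dipeptidyl peptidases and related genes had 8 tested genes. Of these 3 rose and 4 fell (87.5% called, against 65.2%), and the median was -0.15. Besides Fap, which passed the filter through SMRTmRID alone, Dpp7 rose by 0.98, and Prcp and Prep had log2 differences of -1.56 and -0.77. Without Fap 2 of 7 genes rose and 4 fell. With all probe sets of a gene averaged 2 of 8 rose and 2 fell. Genes that build and attach the GPI anchor of Thy1, Ly6a and Nt5e were near the background: 6 of 27 rose and 11 fell (63.0% called, against 65.2%), and the median was -0.09. With all probe sets of a gene averaged 8 rose and 7 fell. Pign and Pgap1 rose by 1.45 and 1.29, and Pigo and Pgap2 fell by 0.95 and 0.93. Pgap1 and Dpm3, the latter not called, passed the filter through SMRTmRID alone. Among the other 25 tested genes 5 rose and 11 fell.

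**Figure D4:**
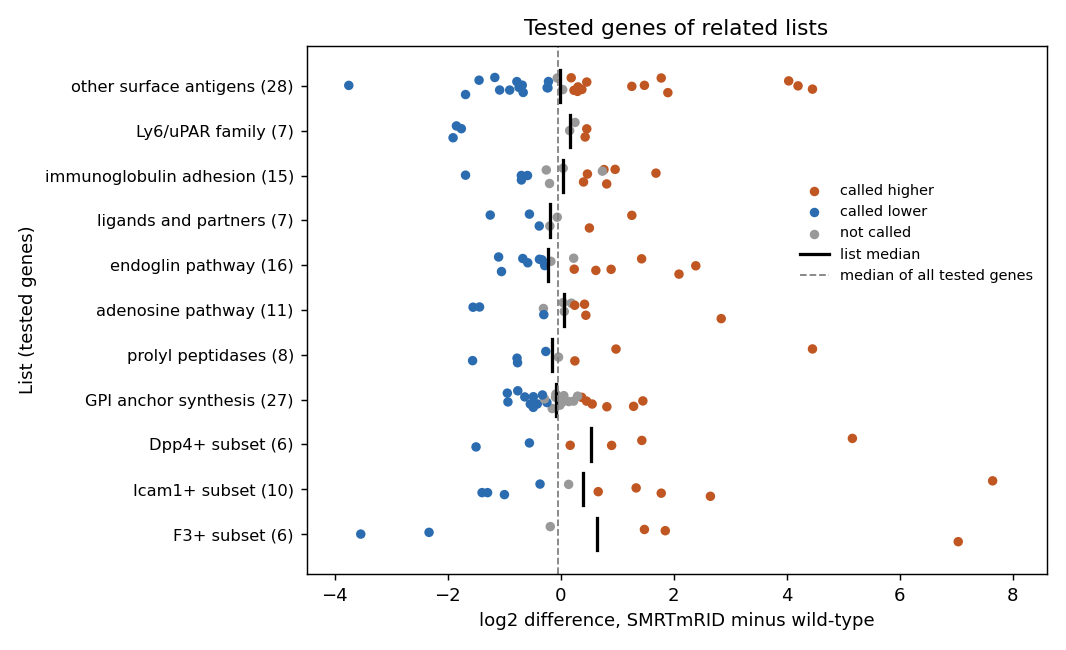
Log2 difference, SMRTmRID minus wild-type, of the tested genes of 11 related lists (number tested in brackets), with orange for called higher, blue for called lower, grey for not called (limma, adjusted p under 0.05), a bar at the list median and a dashed line at the median of all tested genes, -0.05. Every list holds genes called in both directions, and the surface antigens spread from -3.75 to 4.46.

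Markers of the adipose progenitor subsets named after Dpp4, Icam1 and F3 were read beside the antigens. Of 13 markers of the Dpp4 subset 6 were tested: 4 rose and 2 fell, against 65.2% of all tested genes called, and the median was 0.53. Of the 6, 4 passed the filter through 1 genotype alone, namely Dpt, Limch1, Creb5 and Smpd3. Of the other 2, 1 rose and 1 fell. With wild-type replicate 1, SMRTmRID replicate 1 or SMRTmRID replicate 2 left out 2 rose each time, and with all probe sets of a gene averaged 1 rose. Dpt (dermatopontin), a matrix protein, rose from 23.6 and 15.4 to 1260 and 1236, and Smpd3 fell from 97.97 and 86.5 to 22.5 and 21.99. Limch1 rose by 1.44 and Creb5 by 0.90, and the call of Creb5 was lost when wild-type replicate 1 was left out (adjusted p = 0.0578). Pi16, Cd55 and Wnt2, which with Dpp4 define that subset, read between 0.922 and 43.2. Of 10 tested markers of the Icam1 subset 5 rose, 4 fell and the median was 0.40, with 2 genes, Lpl and Col15a1, that passed through SMRTmRID alone. Lpl and Fabp4, a lipase and a fatty-acid carrier of adipocytes, rose by 7.65 and 2.65, while the basement membrane collagen gene Col4a1 fell by 1.39. Of 6 tested markers of the F3 subset 3 rose and 2 fell (83.3% called, against 65.2%), and the median was 0.65. Of these genes 3, Igfbp3, Abcg1 and Clec11a, passed the filter through 1 genotype alone. Among the other 3 genes 1 rose and 1 fell. Igfbp3 and Abcg1 rose by 7.04 and 1.85, and Mgp and Clec11a had log2 differences of -3.54 and -2.33. No subset's tested markers all moved in 1 direction.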

How the data were processed

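Per the submitters' processing notes the deposited values are MAS5 signals, a linear intensity per probe set. The authors' scaling left a mean of 200.0 on each array without the lowest and highest 2% of values. Of 45101 probe sets, 64 controls were left out, and 34945 had 1 gene symbol in the platform's annotation. Where a gene had several probe sets the brightest on average stood for it, and 11057 of 18193 genes with a mean above the median of all values, 35.1, were tested.

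Signals were analysed as log2(signal + 16) in R 4.3.3 by limma 3.58.1 (a two-sided moderated test with variance trend and no covariates) with Benjamini-Hochberg adjustment over all tested genes and a call at an adjusted p under 0.05. The fit was tested on simulated data. Same-numbered arrays did not deviate together (r = 0.012 across genes), so the numbers were not taken to pair arrays. Named list genes are the 4 called genes with the greatest difference per list; others were chosen after their values were seen. Members and lists were chosen with earlier results of these data known. The p-values of list genes are therefore descriptive, and like the standard errors they rest on technical replicates. Alternatives were other pseudocounts, filters, scalings, probe set rules, no trend, a replicate block and each array left out. Motifs were chosen after the signals were seen. Figures were drawn with matplotlib 3.10.9.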

Additional observations from a re-analysis of the deposited data

How the results depend on the processing

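Over 13 alternatives the differences of Thy1, Ms4a4d, Pdpn, Vcam1, Cd34, Nt5e and Eng kept their sign, and the number of antigens at least 2-fold apart stayed within 1.5 times 6. Of 182 counts of called genes over the alternatives, 169 stayed within 1.5 times the reported count. With the filter at the 75th percentile, 3 Ly6 family, 6 immunoglobulin adhesion, 3 Dpp4 subset, 3 F3 subset and 1 sialomucin gene were called, from fewer genes tested. With the mean of all probe sets, 6 immunoglobulin adhesion, 4 peptidase list and 3 Dpp4 subset genes were called, and the cause was not tested. Without a filter 1 MS4A and 1 sialomucin gene were called, and without a variance trend 1 sialomucin gene. Leaving out each array in turn gave 1 to 2 called sialomucin genes. With the replicate number as a block 7420 genes were called, against 7213, and all counts for the lists stayed within 1.5 times those reported. Median centring moved the median of all tested genes to -0.15 and left 38.4% of the called genes higher, against 46.4%. Low signals limit Icam1, Dpp4 and the wild-type values of Thy1, Ms4a4d and Pdpn, for which the detection above background is unknown here.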
